A study of Mus musculus with 6 samples.

Results

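Capg, Gsn, Csrp1, Cfl1 and Pfn1 encode proteins that bind actin, and their transcripts were followed in the adrenal glands of 2 mouse strains. They were read with every probe set (a group of short oligonucleotides that queries a transcript) of the Affymetrix MG_U74Av2 array whose annotation names exactly 1 gene and that gene is among the 5. This gave 8 of the 12488 probe sets on the array, with 3 for Capg, 2 for Csrp1 and 1 each for Gsn, Cfl1 and Pfn1. The genes were selected on the BPH and BPL intensities of these same arrays, so the differences between the strains at these 8 probe sets are given as a description and carry no test. RNA of adrenal glands from BPH mice, a hypertensive strain whose name stands for high blood pressure, was hybridised to 3 arrays, and RNA of adrenal glands from BPL mice, a hypotensive strain named for low blood pressure, to 3 further arrays. Neither strain is labelled as treated or genetically altered, and age, sex and the number of animals behind an array are not given in the sources used here. Nothing says that the 3 arrays of a strain came from separate animals, so p-values measure the spread between these samples, which may be technical.

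Actin filaments grow mainly at their barbed ends, and the 5 proteins act at different steps of filament growth and turnover. Capg and gelsolin (Gsn) belong to the same calcium-regulated family. Capg caps barbed ends without cutting filaments, whereas gelsolin both severs and caps them. Cofilin (Cfl1) severs ageing filaments, profilin (Pfn1) loads monomers and delivers them to growing ends, and Csrp1 is a LIM-domain protein that binds alpha-actinin and zyxin on filament bundles. In the adrenal medulla a cortical actin mesh lies between secretory granules and the plasma membrane of chromaffin cells, and the mesh is remodelled during secretion.

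The promoters of Capg, Gsn and Csrp1 are shown because all BPH arrays lay above all BPL arrays for at least 1 probe set of each. RefSeq lists 8 start sites for the 5 genes, 3 of them for Gsn and 2 for Csrp1, and the 250 bases before each start were searched on both strands. The sequences are those of RefSeq on GRCm38.p6, all on the plus strand, and capitals mark GGGCGG or its reverse complement. The windows shown are chr6:72549397-72549646 for Capg, chr2:35256109-35256358, 1 of the 3 for Gsn, and chr1:135728917-135729166, 1 of the 2 for Csrp1.
Capg: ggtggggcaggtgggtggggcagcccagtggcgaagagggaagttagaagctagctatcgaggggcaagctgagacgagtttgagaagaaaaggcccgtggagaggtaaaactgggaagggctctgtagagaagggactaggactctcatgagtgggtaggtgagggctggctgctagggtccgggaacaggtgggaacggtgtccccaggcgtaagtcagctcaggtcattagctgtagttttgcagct
Gsn: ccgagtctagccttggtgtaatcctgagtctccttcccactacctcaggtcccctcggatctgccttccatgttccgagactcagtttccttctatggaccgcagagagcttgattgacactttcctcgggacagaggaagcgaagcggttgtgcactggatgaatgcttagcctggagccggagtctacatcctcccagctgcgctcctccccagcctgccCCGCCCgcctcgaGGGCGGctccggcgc
Csrp1: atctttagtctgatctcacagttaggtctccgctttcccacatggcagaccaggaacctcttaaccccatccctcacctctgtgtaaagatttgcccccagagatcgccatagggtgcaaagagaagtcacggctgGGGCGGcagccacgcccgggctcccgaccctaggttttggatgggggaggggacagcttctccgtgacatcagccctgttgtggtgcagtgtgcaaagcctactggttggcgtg
GGGCGG was in 5 of the 8 windows, including all 3 of Gsn, 1 of the 2 of Csrp1 and that of Pfn1, and in 32.7% of the 32851 windows of that length in the table. The Gsn window shown held 2 matches on both strands together, the Csrp1 window shown 1 and the Capg window 0. The other Gsn windows held 1 each and the other Csrp1 window 0, so the windows shown for these genes are those with the most matches. Neither TATAAA, which 12.4% of all windows held, nor TGANTCA, held by 6.75%, nor the CArG box, held by 1.47%, was found in any of the 8 windows. These matches describe letters in the C57BL/6J reference, and the BPH and BPL sequences were not analysed here.

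The values, as the authors deposited them, are linear intensities, and the mean of each array without its top and bottom 2% was 2499.4 to 2499.6, so no scaling was added. Values under an intensity of 201.3 were raised to that floor before log2 was taken. All differences are BPH minus BPL in mean log2 intensity. Before the results, 2 features of the arrays bear on them. BPH 1 and BPL 2 carried far more signal of 14 skeletal muscle markers than the other arrays, with summed intensities of 193264 and 207668 against 13468 to 30860. BPH 1 and BPH 2 were washed on fluidics station 2 and the other 4 arrays on station 1, so the comparison within station 1 sets BPH 3 alone against the 3 BPL arrays. The adrenal label held: the 8 cortex markers on the array summed to between 665622 and 779526 on BPH arrays and between 668903 and 734310 on BPL arrays, and all 8 passed the filter on low values. Across all 7293 probe sets that passed that filter, limma called 184 (2.52%) after Benjamini-Hochberg adjustment with a threshold of 0.05, with 114 (1.56%) higher and 70 (0.96%) lower in BPH.

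Capg, the capping protein, was read by 3 probe sets whose differences had unlike signs. Probe set 160106_at had intensities of 3577, 3795 and 3634 on the BPH arrays, against 169.6, 89.3 and 323.9 on the BPL arrays. The BPH arrays lay close together, with a coefficient of variation of 3.08%, while 2 of the 3 BPL arrays lay under the floor. The mean was 3668 ± 113 in BPH and 194.3 ± 119.2 in BPL (SD, n = 3 each), and the lowest BPH array stood 11.0-fold above the highest BPL array. The log2 difference was 3.96 (SE 0.23), a value that the floor understates. The floor also set 2 of the 3 BPL arrays to the same level, so the SE is understated too.

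A second Capg probe set, 161969_f_at, had 1280.1, 1414 and 348.8 on the BPH arrays, against 170.7, 209.1 and 103.9 on the BPL arrays. All BPH arrays again lay above all BPL arrays, but BPH 3 stood far below BPH 1 and BPH 2, and 2 BPL arrays were under the floor. Its log2 difference was 2.07 (SE 0.65, likewise narrowed by the floor), and within station 1, where BPH 3 is the only BPH array, it was 0.77. The suffix of this probe set marks probes shared by a family of similar sequences, so its signal need not come from Capg alone. It failed the filter on low values, with a geometric mean over the 6 arrays of 418.2 after the floor, against the 668.1 required.

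The remaining Capg probe set, 162461_at, ran the other way. Its intensities were 536.8, 617.2 and 811.2 on the BPH arrays, against 784, 1077 and 755.6 on the BPL arrays. The strains overlapped, since BPH 3 exceeded both BPL 1 and BPL 3. The mean was 655.1 ± 141.1 in BPH and 872.1 ± 177.8 in BPL (SD, n = 3 each), a log2 difference of -0.42 (SE 0.24). The difference was -0.12 without BPH 1 and BPL 2 and -0.086 within station 1. With a geometric mean of 745.3 it was the closest above the filter of the 7 of 8 probe sets that passed. Probe set 160106_at passed the filter only through BPH, with all 3 BPL arrays under 668.1. Across the 3 probe sets the log2 difference therefore ran between -0.42 and 3.96, with 2 above 0 and 1 below it, and the files hold no probe-level signal that would show which sequences each one read.

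**Figure D1:**
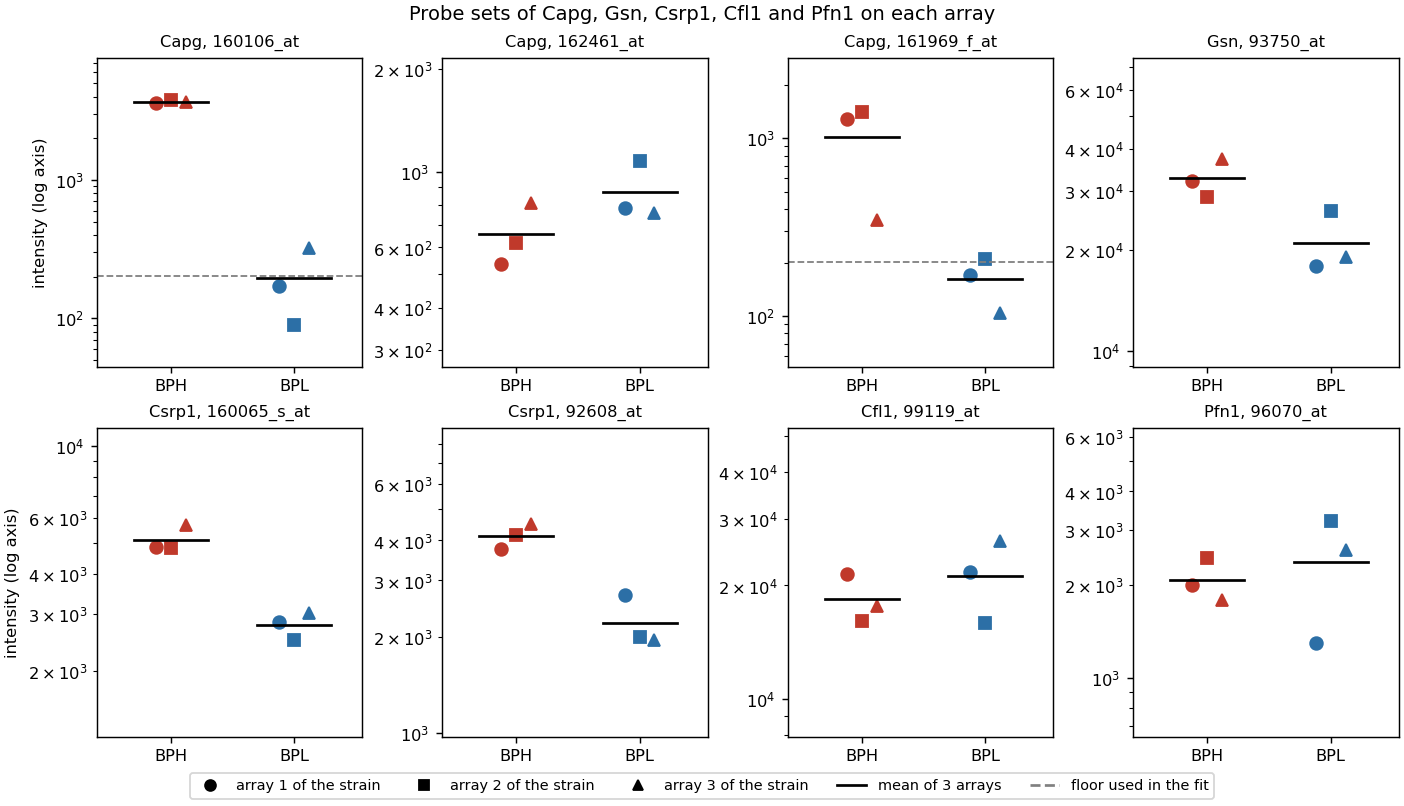
Deposited intensity (log axis) of each of the 8 probe sets on the 3 BPH arrays (red, left) and the 3 BPL arrays (blue, right), with array numbers as symbols, strain means as black lines and the floor of 201.3 as a dashed line where it is in range. The strains are wholly separated for Capg 160106_at and 161969_f_at, Gsn and both Csrp1 probe sets, and overlap for Capg 162461_at, Cfl1 and Pfn1.

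Gsn, the severing and capping protein, was bright on every array. Probe set 93750_at had intensities of 32121, 28718 and 37253 on the BPH arrays, against 17905, 26007 and 18945 on the BPL arrays. BPH lay wholly above BPL, but only narrowly, because BPL 2 came close to BPH 2 and the lowest BPH array was 1.10-fold the highest BPL array. The mean was 32697 ± 4296 in BPH and 20952 ± 4408 in BPL (SD, n = 3 each), a ratio of 1.56 and a log2 difference of 0.65 (SE 0.20). The difference was 0.83 without BPH 1 and BPL 2 and 0.85 within station 1, both of them larger than over all 6 arrays. A single probe set reads Gsn, so the plasma and cytoplasmic forms of gelsolin, which differ at their start, cannot be told apart here.

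Csrp1, the LIM-domain protein, was read by 2 probe sets that gave alike differences. Probe set 160065_s_at had 4863, 4823 and 5692 on the BPH arrays, against 2844, 2505 and 3022 on the BPL arrays. The lowest BPH array was 1.60-fold the highest BPL array. The mean was 5126 ± 491 in BPH and 2790.2 ± 262.8 in BPL (SD, n = 3 each), a log2 difference of 0.88 (SE 0.11). Probe set 92608_at had 3774, 4148 and 4492 on the BPH arrays, against 2695, 1992 and 1952 on the BPL arrays. The strains were separated here too, with the lowest BPH array 1.40-fold the highest BPL array. The log2 difference was 0.92 (SE 0.17). Within station 1 the 2 probe sets gave 1.03 and 1.04, and without BPH 1 and BPL 2 they gave 0.84 and 0.91. The ratio of means was 1.84 for the first and 1.87 for the second, so the estimates of the strain difference lay within each other's error.

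Cfl1, which severs and turns over filaments, overlapped between the strains. Probe set 99119_at had 21493, 16076 and 17690.1 on the BPH arrays, against 21668, 15885 and 26186 on the BPL arrays. The highest value was on BPL 3 and the lowest on BPL 2, so BPL spanned the whole BPH range. The log2 difference was -0.19 (SE 0.24). It was -0.50 without BPH 1 and BPL 2 and -0.23 within station 1, and it ran between -0.38 and -0.021 when 1 array was left out.

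Pfn1, the monomer-binding protein, overlapped as well and was the most scattered of the 7 of these 8 probe sets that passed the filter. Probe set 96070_at had 2000.4, 2449.5 and 1793 on the BPH arrays, against 1297, 3205 and 2596 on the BPL arrays. Both the lowest and the highest value were on BPL arrays. The pooled SD within strains was 0.51 on the log2 scale, against a median of 0.22 over all 7293 probe sets that passed the filter, and 0.14 for Csrp1 160065_s_at. The log2 difference was -0.099 (SE 0.42), and it was 0.19 without BPH 1 and BPL 2 and -0.30 within station 1, so its direction depended on which arrays were used.

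In all, the 3 BPH arrays lay wholly above the 3 BPL arrays at 5 of the 8 probe sets and wholly below them at 0. Over all 12422 probe sets that are not controls, 10.5% lay wholly above and 21.3% lay apart in either direction. Since the genes were picked with these values known, the comparison of the 2 shares says nothing about them.

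**Figure D2:**
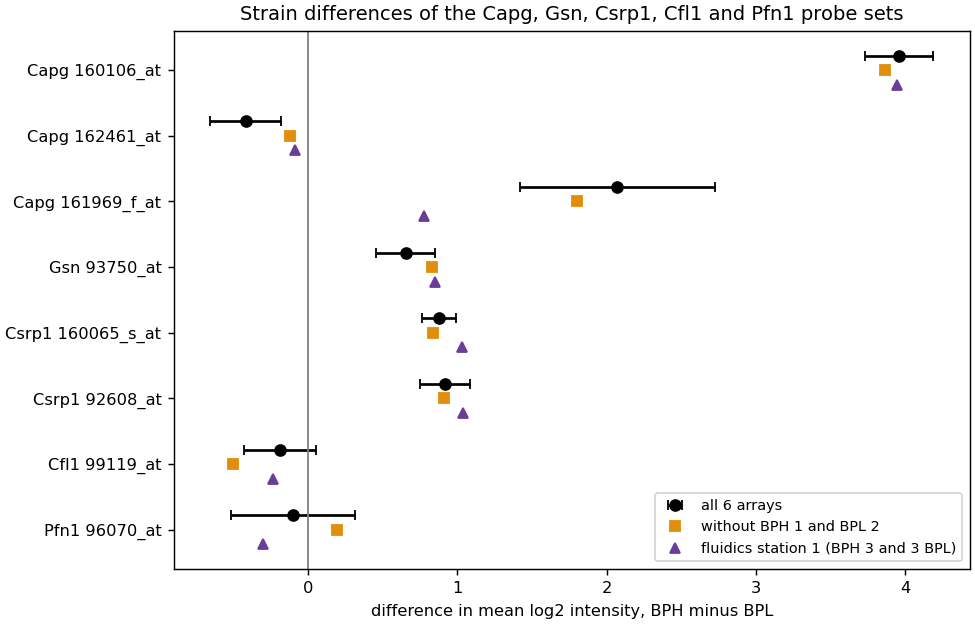
Difference in mean log2 intensity, BPH minus BPL, for each of the 8 probe sets over all 6 arrays (black, bars are 1 SE), without BPH 1 and BPL 2 (orange squares) and within fluidics station 1 (purple triangles). Capg 160106_at stays between 3.86 and 3.96 for these sets of arrays, whereas Capg 161969_f_at drops to 0.77 within station 1 and Pfn1 falls on both sides of 0.

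Each gland is a mixture of cell types, and in bulk RNA fewer cells of a type and less RNA per cell cannot be told apart. Capg is abundant in macrophages. The 14 macrophage markers, all on the array, summed to between 27435 and 30159 on BPH arrays and between 25283 and 30472 on BPL arrays, so the BPH range lay inside the BPL range. Of the 10 that passed the filter 6 had a positive difference, 0 were called in limma, and the median difference was 0.049. The defining marker Aif1 was under the floor on all arrays, while the brightest, C1qc and Cd14, had log2 differences of -0.38 and -0.16. C1qb (-0.80, adjusted p = 0.0867), Lyz2 (0.49, adjusted p = 0.0871) and Csf1r (0.44, adjusted p = 0.166), which also mark macrophages, were not called. Nor was Mrc1, whose difference of 0.72 (limma adjusted p = 0.204) was the largest positive one among the tested markers. Of the markers that failed the filter, Fcer1g had 252.7, 215.3 and 345.4 on the BPH arrays, against 78.3, 55.8 and 103.9 on the BPL arrays. Fcgr3 and Adgre1 overlapped between the strains. Ptprc, listed with the blood cells, also failed it, with 475.5, 378 and 292.2 on the BPH arrays. On the BPL arrays it had 56.2, 168.4 and 196.9, all under the floor. Cd3e and S100a8 of that list overlapped, and S100a9 was lower in BPH. Whether macrophages or blood cells had a part in the Capg difference was not tested.

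Csrp1 and Gsn are prominent in smooth muscle and connective tissue cells. The 12 smooth muscle and pericyte markers summed to between 24893 and 29373 on BPH arrays and between 23870 and 32058 on BPL arrays, again overlapping, with 6 of 10 positive and 0 called. The 12 markers of fibroblasts and capsule summed to between 113675 and 124049 on BPH arrays and between 102808 and 105967 on BPL arrays, which did not overlap. Of the 11 that passed the filter 6 had a positive difference, 0 were called, and the median difference was 0.010. Dcn, a matrix proteoglycan and the second brightest of them, had a difference of 0.52 (limma adjusted p = 0.0612), while the brightest, Sparc, had -0.030. Mfap5 (0.92, adjusted p = 0.137), Pdgfra (0.64, adjusted p = 0.0999) and Mgp (0.58, adjusted p = 0.0863) were likewise higher on all BPH arrays than on all BPL arrays. Lum (-0.21), Col1a2 (-0.20), Col1a1 (-0.17) and Dpt (-0.094) were negative, as Sparc was. The sums weigh bright markers most, and Dcn had 39295, 34418 and 35665 on the BPH arrays, against 27568, 24532 and 24279 on the BPL arrays. Whether the connective tissue signal had a part in the Gsn or Csrp1 difference was not tested.

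Gsn is also expressed in fat. The 9 brown fat markers on the array summed to between 40582 and 69181 on BPH arrays and between 106290 and 313901 on BPL arrays. Of the 7 tested 0 were positive and 2 were called lower in limma, while 0.9% of all 5555 tested genes were called lower. The 10 markers of fat of any kind summed to between 134628 and 169482 on BPH arrays and between 175285 and 332260 on BPL arrays. Of these 10, 1 was positive and 2 were called lower, against the same 0.9% of all tested genes. BPL 2 had the highest brown fat sum and the highest Gsn value of the BPL arrays. Chromaffin markers differed between the strains as well, and the 9 on the array summed to between 233618 and 280166 on BPH arrays and between 129393 and 240718 on BPL arrays. All 8 of the 8 tested were positive, with a median difference of 0.65. Of these 8, 1 was called higher, the enkephalin precursor gene Penk, while 1.53% of all tested genes were called higher. The part of fat and chromaffin cells in the differences was not tested.

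**Figure D3:**
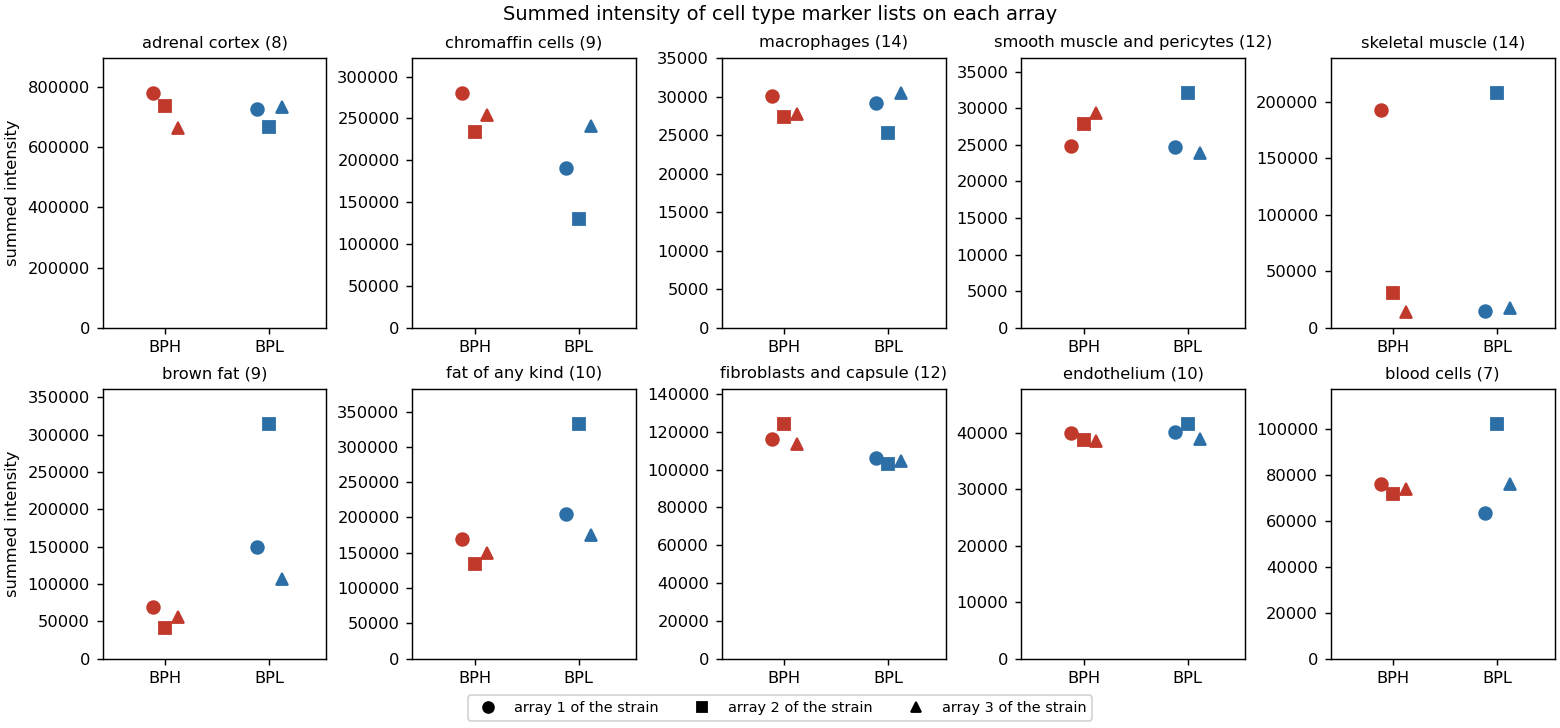
Summed intensity (linear axis from 0) of the markers of 10 cell types on the 3 BPH arrays (red, left) and the 3 BPL arrays (blue, right), with the number of markers on the array in brackets. Macrophage and smooth muscle sums overlap between the strains, fibroblast sums are all higher in BPH, brown fat sums are all lower in BPH, and skeletal muscle signal is high on BPH 1 and BPL 2.

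The rest of the actin cytoskeleton was read from 155 other genes listed by role. Of these, 120 were on the array with a probe set of their own and 96 passed the filter, each represented by its brightest probe set. The 5 genes above are not among them. The lists were drawn up with earlier results of these data known, so their tests are not free of that choice. Limma called 1 of the 96, or 1.04%, against 2.43% of all 5555 genes tested, with 0 higher (1.53% of all genes) and 1 lower (0.9% of all genes). At an unadjusted p under 0.05 there were 12 higher and 5 lower, together 17.7%, against 19.3% of all genes, of which 11.2% were higher and 8.1% lower. The median difference was 0.099 over the 96 and 0.037 over all genes, and 68.8% of the 96 had a positive difference, against 54.8% of all genes.

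The called gene was Cap1, which encodes a cyclase-associated protein that works with cofilin in recycling actin monomers. It had intensities of 355.8, 574.9 and 651.7 on the BPH arrays, against 1345, 1254 and 1588 on the BPL arrays. Its mean was 527.5 ± 153.5 in BPH and 1395.5 ± 172.7 in BPL (SD, n = 3 each), a log2 difference of -1.44 (SE 0.30, limma adjusted p = 0.0467). All 3 BPH arrays lay under the 668.1 required by the filter and all 3 BPL arrays above it, so Cap1 was tested only through its level in BPL, and its call does not stand apart from that filter. With no filter its adjusted p was 0.176. The call was close to the threshold and did not hold when any 1 of the 6 arrays was left out, within station 1 (-1.09, adjusted p = 0.509) or without BPH 1 and BPL 2 (-1.26, adjusted p = 0.118). The call also turned on how the filter on low values was taken: with the filter on the mean intensity, which was run first, limma called 0 of 97 genes, 17 had an unadjusted p under 0.05, and Cap1 had an adjusted p of 0.0527. Its adjusted p ran between 0.036 and 0.509 over 20 alternatives, and the difference ran between -1.62 and -1.09. Of the other 10 tested genes of the cofilin pathway none was called in limma. Of all 11 in the list 0 higher and 2 lower, Cap1 among them, had an unadjusted p under 0.05. That was 18.2% of the list, near the 19.3% of all genes. Tesk1, a kinase that phosphorylates cofilin, differed by -0.59 (adjusted p = 0.103) and Coro1a, a coronin abundant in blood cells, by -0.87 (adjusted p = 0.307).

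Relatives of Capg and gelsolin were not called. Of the 2 tested, Svil, the membrane-linked supervillin, differed by 0.15 (adjusted p = 0.493) and Flii by -0.018 (adjusted p = 0.953) at its brightest probe set. Another Flii probe set, 95489_at, had 3158, 3108 and 3624 on the BPH arrays, against 1756, 1843 and 2669 on the BPL arrays, a difference of 0.68 (limma adjusted p = 0.0918), and a further one, 97593_f_at, had -0.051 (adjusted p = 0.855). The subunits of capping protein, which binds the same barbed ends as Capg, had differences of 0.28 for Capza1 (adjusted p = 0.252), 0.27 for Capzb and 0.15 for Capza2, none of them called. Capzb had 0.036 at a second probe set and -0.36 at a further one that failed the filter. All 5 tested genes of end capping and tropomodulin were positive, and the list median was 0.15.

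Among relatives of Csrp1, the nearest, Csrp2, differed in the other direction, by -0.36 (adjusted p = 0.211). Fhl2, another LIM-domain protein, differed by 0.49 (adjusted p = 0.149) and Lpp, a zyxin relative, by 0.21. Of the 15 tested genes of the LIM and adhesion list 8 were positive, and the median was 0.046. In the monomer-binding list, which holds the profilin relative Pfn2, all 3 tested genes were positive, with 0.24 for Tmsb4x, 0.23 for Pfn2 and 0.16 for Tmsb10, and 0 had an unadjusted p under 0.05.

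Filament nucleation held no called gene in limma, with 2 higher and 0 lower of 13 at an unadjusted p under 0.05, or 15.4%, against 19.3% of all genes. Differences were positive in 12 of the 13 (54.8% of all genes), and their median was 0.077. Arpc2, a core subunit of the Arp2/3 complex that starts branched filaments, had 20568, 19973 and 17234 on the BPH arrays, against 13974, 13966 and 13967 on the BPL arrays. The strains were separated, and the difference was 0.46 (SE 0.11, limma adjusted p = 0.0752). Actr3, the actin-related protein of the same complex, differed by 0.37 (adjusted p = 0.166) and Wipf1, a partner of its activators, by 0.56 (adjusted p = 0.276).

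Of the 15 tested crosslinking and bundling proteins 0 were called in limma, and 3 higher and 1 lower, or 26.7%, had an unadjusted p under 0.05, against 19.3% of all genes. Tagln, the smooth muscle protein transgelin, differed by 0.44 (adjusted p = 0.0947), the bundling proteins Pls3 by 0.35 (adjusted p = 0.212) and Fscn1 by -0.64 (adjusted p = 0.203). Myh11, the smooth muscle myosin heavy chain, differed by -1.04 (adjusted p = 0.0918), but it too passed the filter only through BPL, with all 3 BPH arrays under 668.1. The tropomyosin gene Tpm4 had 0.35 and Tpm2 -0.40. Tpm2 was far brighter on BPL 2, an array with skeletal muscle signal, at 5612, than on the other 5 arrays.

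Among the actins themselves 6 were tested and 0 called. Actg2, the enteric smooth muscle actin, differed by 0.36 (adjusted p = 0.23) at 93102_f_at, whose suffix also marks shared probes, so its signal need not come from Actg2 alone. The muscle actin Acta1 followed the skeletal muscle signal, with 41852, 5529 and 1549 on the BPH arrays, against 320.6, 62862 and 1833 on the BPL arrays. Actc1 did so at its brightest probe set, 101029_f_at, whose suffix marks probes shared by a family of similar sequences. A further Actc1 probe set, 101028_i_at, failed the filter and had 6749.7, 668.6 and 50.2 on the BPH arrays. On the BPL arrays it had 30.9, 43 and 301.3, so it was under the floor on BPL 2. In the membrane linker list Rdx, which ties filaments to the membrane, differed by 0.31 (adjusted p = 0.212), its relatives Msn by 0.23 and Ezr by -0.38.

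**Figure D4:**
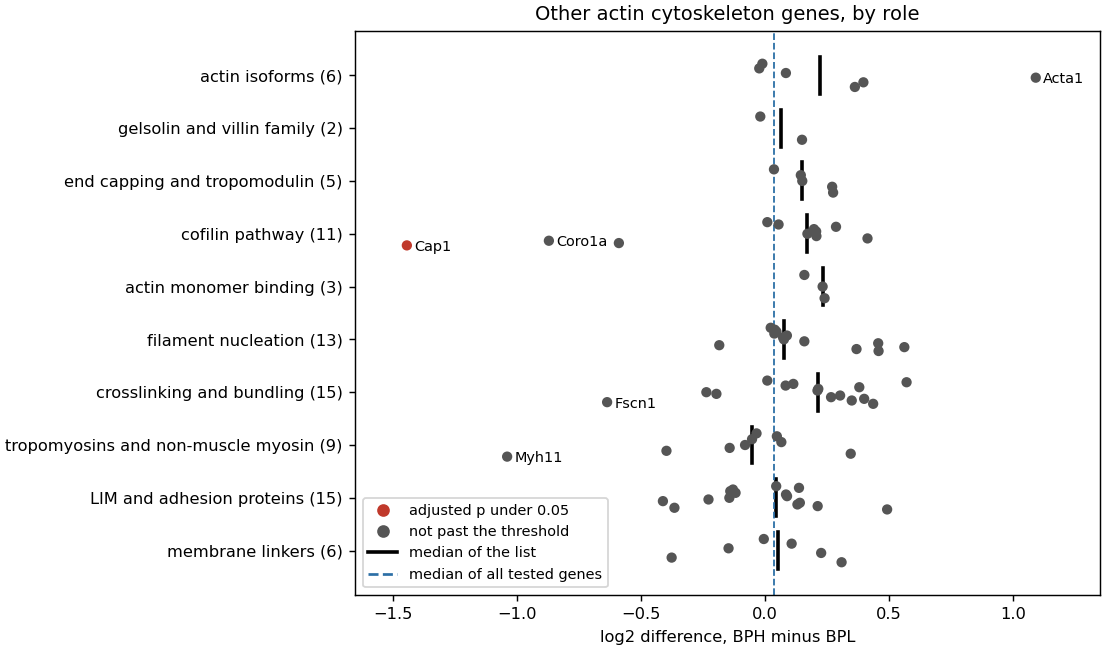
Log2 difference, BPH minus BPL, of 85 of the 96 tested actin cytoskeleton genes other than Capg, Gsn, Csrp1, Cfl1 and Pfn1, in 10 of the 11 lists by role with the number tested in brackets, each gene a point. Cap1 at -1.44, under the filter level on every BPH array, is the only point past an adjusted p under 0.05, and list medians (black bars) lie between -0.051 and 0.23, against 0.037 for all tested genes (dashed line).

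The tested genes that lie nearest to Capg in RefSeq's order along chromosome 6 were read as well, 5 on either side. None of the 10 was called in limma, while 6 had an unadjusted p under 0.05, against 19.3% of all genes. Usp39 (0.68), Rnf181 (0.46), Vamp5 (1.11) and Vamp8 (0.45) on the side of lower coordinates had positive differences and Tmem150a had -0.40. On the other side Kcmf1 had -0.38, Elmod3 -0.32, Tcf7l1 -0.048, Retsat 0.066 and Tgoln1 0.14. Around Gsn 1 of 10 neighbours and around Csrp1 2 of 10 had an unadjusted p under 0.05, and 0 were called. The smallest limma adjusted p among the neighbours of Capg was 0.0975, for Rnf181. It was smaller for Ndufa8 beside Gsn (-0.72, adjusted p = 0.0680) and for Gm4788 beside Csrp1 (1.29, adjusted p = 0.0671).

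The genes with the most alike profiles were found by the root mean square difference in log2 intensity over the 6 arrays, after each of 6569 single-gene probe sets was centred on its own mean. Likeness over 6 arrays in 2 strains mostly ranks genes by their strain difference, and it is given as a description. Nearest to Capg 160106_at were H2-Ea, which encodes a class II histocompatibility chain, at 0.44, Gadd45b, a stress-induced gene, at 0.56, a probe set of the transcription factor gene Junb at 0.59 and the chemokine receptor gene Cxcr4 at 0.59. Their own log2 differences ran between 2.88 and 3.27, below that of Capg. Nearest to Gsn were Tbc1d24 at 0.091 and Cebpb, Rgcc and Gnb1 at 0.11 each. Like Gsn, these 4 stood higher on BPL 2 than on BPL 1 and BPL 3, which follows from picking them for likeness. Nearest to Csrp1 160065_s_at were Asxl1 at 0.094, Stag2 at 0.098, and Mapre1, a microtubule end-binding protein gene, and F11r, a junction protein gene, at 0.11 each.

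**Figure D5:**
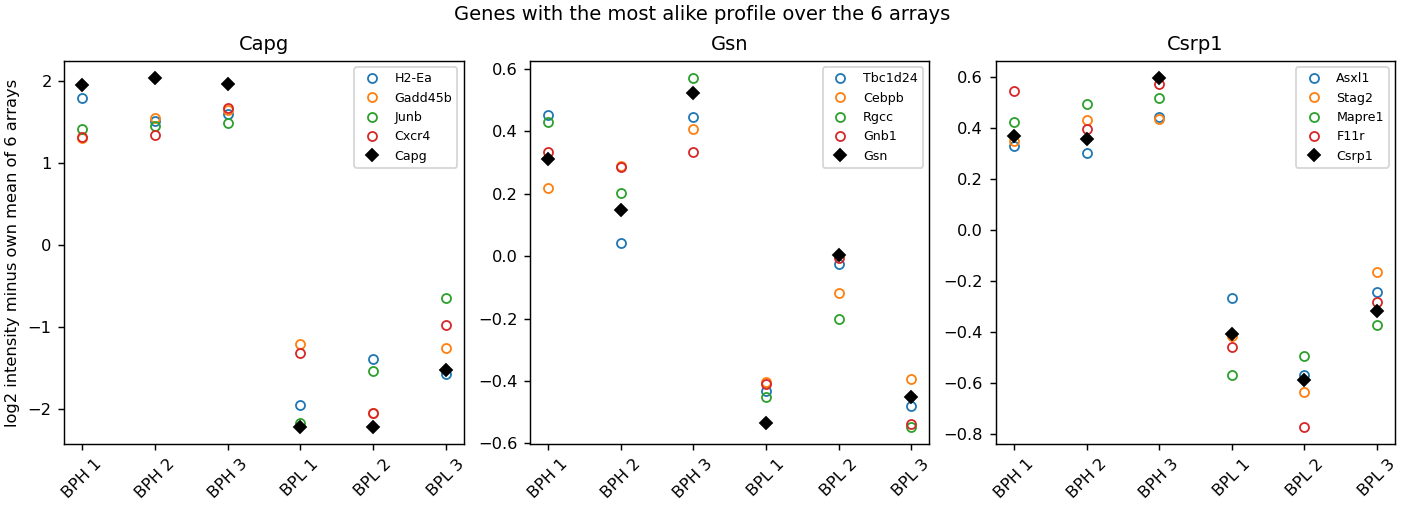
Log2 intensity on each of the 6 arrays, centred on the probe set's own mean, for Capg 160106_at, Gsn 93750_at and Csrp1 160065_s_at (black diamonds) and the 4 single-gene probe sets nearest to each (open circles). The scale of Capg runs past 2 in either direction, while those of Gsn and Csrp1 stay within 0.8.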

How the data were processed

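Intensities of 12488 probe sets on 6 Affymetrix MG_U74Av2 arrays were used as deposited by the authors, on a linear scale. Their summary method is not named in the labels or headers, and they hold no detection call. The array run files, per the file headers, give the chip type and fluidics station. Values were floored at the 20th percentile, 201.3, and taken to log2. The 66 control probe sets and those whose mean log2 intensity lay under the log2 of the table's 40th percentile, 668.1, were left out, leaving 7293. The filter was first taken on the mean intensity, which left 7459 probe sets with 191 called. It was changed to the mean log2 intensity, to match an earlier processing of these data, after both results were known. Limma 3.58.1 under R 4.3.3 (lmFit, eBayes with trend) gave BPH minus BPL, two-sided, and its adjusted p-values (Benjamini-Hochberg, threshold 0.05) run over all 7293. The precision is limited by the 3 arrays per strain.

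Genes came from the platform annotation, with 10855 probe sets naming 1 gene, 396 naming several and 1237 naming none. Current symbols were taken from RefSeq's GRCm38.p6 table for 10839 of them, by gene number. The genes of 1 actin list are counted but not reported here. Named genes were all probe sets of the 5 genes, called genes and the 3 with the smallest p of each actin list, the 4 nearest profiles, and bright or defining markers. The genes, lists and rules were chosen with earlier results of these data known. Neighbours and promoter motifs were added after values were seen.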

Additional observations from a re-analysis of the deposited data

How the results depend on the processing

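For the 8 probe sets of Capg, Gsn, Csrp1, Cfl1 and Pfn1, 14 alternatives each were run, and a value counted as moved when it shifted by more than the pooled SD within strains. Capg 160106_at, Capg 161969_f_at, Gsn and both Csrp1 probe sets were positive in all 14, Capg 162461_at and Cfl1 negative in all 14, and Pfn1 positive in 4. Capg 160106_at moved to 4.42 with the floor at the 10th percentile. With the fluidics station as a block and within station 1, which gave equal values, Capg 162461_at moved to -0.086, Capg 161969_f_at to 0.77 and Csrp1 160065_s_at to 1.03. Without BPH 1 and BPL 2, an alternative chosen after seeing the data, Capg 162461_at moved to -0.12 and Cfl1 to -0.50. Leaving out 1 array gave 3.84 to 4.19 for Capg 160106_at, 0.55 to 0.82 for Gsn, and -0.48 to 0.17 for Pfn1, whose sign turned. The cause was not tested. Of all probe sets, 184 were called, against 52 with no filter, 83 without the intensity trend, 18 with the station as a block, 7 within station 1 and 48 at an adjusted p under 0.01. Leaving out 1 array gave 42 (without BPH 2) to 361 (without BPL 3), with 83 without BPH 1, 49 without BPH 3 and 94 without BPL 1. Of the other actin genes limma called 1, 2 under quantile normalization (Arpc2 and Cap1) and 0 under 14 alternatives, where 4 to 19 had an unadjusted p under 0.05. These were no filter, the filter at the 60th percentile, which leaves Cap1 out, a filter on the mean intensity (run first, then replaced with both results known), the replicate block, the station as a block, station 1 only, an adjusted p under 0.01, the set without BPH 1 and BPL 2, and each single array left out. The replicate numbers are shared by the strains, but deviations of same-numbered arrays correlated at -0.22, -0.084 and 0.012. These values show no pairing by number, but with 3 arrays per strain they cannot exclude one. With the replicate block 124 probe sets and 0 other actin genes were called, and the differences of the 8 probe sets stayed as they were, 3.96 for Capg 160106_at. Values near the floor of 201.3, as for Capg in BPL, have no order and limit the folds, and raising values to the floor narrows their spread.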
